A study of Mus musculus with 96 samples.

Results

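The light response described here is that of total nuclei from the visual cortex of mice of line E1 that received the control virus. It compares 5 libraries from mice exposed to light with 3 libraries from mice kept in the dark, chosen by their labels alone, 8 of the 96 libraries of the series. All 8 came from mice of line Igf1-E1 fl/fl, in which an enhancer of Igf1 is flanked by loxP sites, crossed to VIP flp/wt, so that VIP interneurons carry the recombinase Flp. All received AAV-Syn1-fDIO-mScarlet-KASH-2a-dCre in visual cortex at 55 to 60 days of age, a virus that Flp switches on and that carries dCre, an inactive Cre, so the enhancer stayed intact. From 3 days after injection the mice were in darkness for 10 to 12 days. The light group then had 1 h of light before the tissue was taken, and the dark group had none. The light libraries came from 2 females and 3 males, and the dark libraries from 2 females and 1 male. The other comparisons of total nuclei set beside this one are line E1 with the active Cre virus (AAV-Syn1-fDIO-mScarlet-KASH-2a-Cre, 4 light and 5 dark libraries), and lines E23 (Igf1-E23 fl/fl) and E123 (Igf1-E123 fl/fl) with dCre (4 light and 4 dark libraries each), all on VIP flp/wt. The VIP nuclei sorted from E1 dCre mice (5 light and 3 dark libraries) are the fourth.

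Light after a period of darkness makes cortical neurons fire, and calcium entering through synaptic receptors and channels activates kinases that act on transcription factors already bound in the nucleus, CREB and SRF among them. Within minutes these switch on immediate-early genes, most of which encode further transcription factors such as FOS, EGR and NR4A proteins. Those factors and the kinases then drive a slower set of genes for secreted factors, channels and synaptic proteins, which differs between cell types and through which neurons adjust their synapses. Nuclei hold unspliced and newly made RNA, so a nuclear library follows recent transcription more closely than one made from whole cells. Total nuclei are a mixture of neurons and glia, and in such a mixture fewer cells of a type and less RNA per cell cannot be told apart.

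Each library was made from 50 to 100 sorted nuclei and held 3411610 to 8046888 counts over 19417 to 21739 detected genes. The levels of sex-linked genes matched the labelled sex in 8 of 8 libraries. The labels call the replicates biological and do not say whether animals were pooled, so the p-values rest on the spread between libraries. That spread was estimated over all 48 libraries of total nuclei and not over these 8 alone. Excitatory neuron markers were the most uniform marker list, with a summed level of 2920 to 2998 counts per 1000000 (CPM) in light libraries and 3036 to 3687 CPM in dark libraries. Oligodendrocyte lineage markers summed to 1158 to 3449 CPM in light and to 452.5, 491.5 and 2036 CPM in dark replicates 1 to 3. Microglia markers summed to 235.0 to 619.0 CPM in light libraries and to 213.3, 138.1 and 263.0 CPM in dark replicates 1 to 3. Endothelial and mural markers stayed at 15.5 to 81.6 CPM in light and 17.2 to 37.5 CPM in dark libraries, and of the 13 listed only 8 passed the filter on low counts.

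Dark replicates 1 and 2 stood apart from the other 6 libraries. In each library the mean log2(CPM + 1) of 3442 protein-coding genes spanning under 10 kb was subtracted from that of 2408 genes spanning over 100 kb, which gives an index of how far long genes outweighed short ones. The index was 2.66, 2.43, 2.44, 2.31 and 2.39 in light replicates 1 to 5, and 3.95, 4.03 and 2.64 in dark replicates 1 to 3. Dark replicate 3 lay inside the range of the light libraries, and the other pair of dark libraries lay far above it. The summed oligodendrocyte lineage markers split the dark libraries in the same way. Over the other 40 libraries of total nuclei the index ran from 2.08 to 4.35 with a median of 2.61, and 2 libraries, both dark ones of E123 dCre, reached the level of E1 dCre dark replicate 1. VIP nuclei of E1 dCre mice showed the same split, with 2.31 to 3.26 in the 5 light libraries and 4.4, 4.37 and 2.93 in dark replicates 1 to 3. Both dark libraries that stood apart came from females and dark replicate 3 from a male, so sex and this difference cannot be told apart within the dark group.

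**Figure D1:**
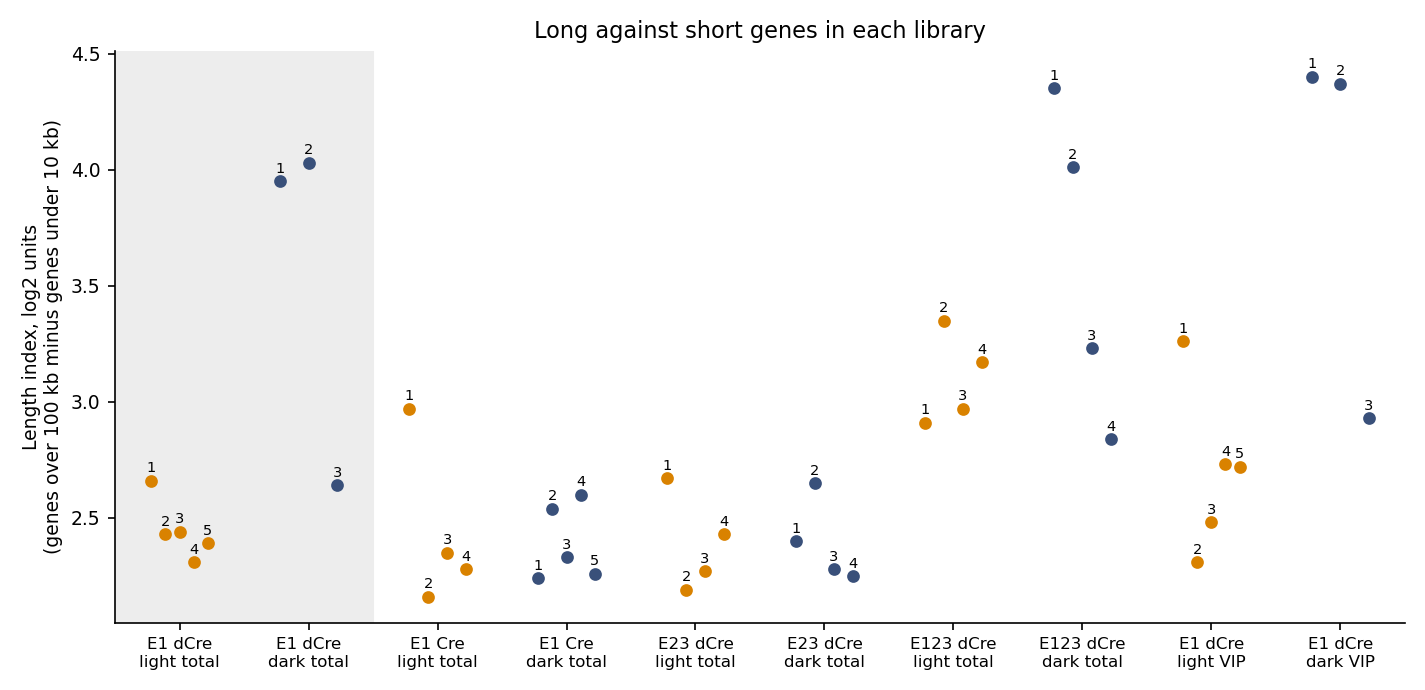
Length index, the mean log2(CPM + 1) of protein-coding genes spanning over 100 kb minus that of genes under 10 kb, for each library of 10 groups, with one point per library numbered by replicate, light before dark in each pair. E1 dCre total nuclei had 2.45 ± 0.13 (SD) in 5 light libraries and 3.54 ± 0.78 in 3 dark libraries, where replicates 1 and 2 lay at 3.95 and 4.03 and replicate 3 at 2.64.

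Of 21213 genes tested, 781 (3.68%) passed at an adjusted p under 0.05 in edgeR's quasi-likelihood test, 470 (2.22%) higher and 311 (1.47%) lower after light. The counts moved with the libraries in the fit, and a fit of the 8 libraries alone gave 3 calls. Without dark replicate 1 there were 6 calls and without dark replicate 2 there were 4, while without dark replicate 3 there were 2904. With both dark replicates 1 and 2 left out, dark replicate 3 is the only dark library and is assumed to vary like the libraries of the other groups. Fold changes of that fit are given as values, and its count of calls is not read. With the length index as a covariate 4 genes (0.0189%) passed: Nr4a1, Sik2, Ntrk2 and Ppm1h. Scaling by total counts alone, which moved the median log2 fold change of all genes from -0.01 to 0.12, gave 425 higher and 103 lower calls, so that 80.5% of calls were higher, against 60.2% with TMM scaling.

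The genes described first are activity-regulated ones. Nr4a1 encodes an orphan nuclear receptor made within an hour of neuronal firing, Sik2 a salt-inducible kinase that restrains CREB coactivators, Fos a subunit of the AP-1 transcription factor, and Pcsk1 a protease that cuts neuropeptide precursors. Of the 8 genes that rose after light here and were also called in at least 2 of the 3 other comparisons of total nuclei, these 4 were picked for their known roles after the values were seen, and their promoters are shown as examples. Each sequence, from RefSeq on GRCm38.p6, runs 5′ to 3′ along the gene's own strand over 250 bases before and 20 after the annotated start, with capitals marking TGACG, the core of the cAMP response element that CREB binds, or its reverse complement.
Nr4a1, chr15:101266596-101266865, plus strand: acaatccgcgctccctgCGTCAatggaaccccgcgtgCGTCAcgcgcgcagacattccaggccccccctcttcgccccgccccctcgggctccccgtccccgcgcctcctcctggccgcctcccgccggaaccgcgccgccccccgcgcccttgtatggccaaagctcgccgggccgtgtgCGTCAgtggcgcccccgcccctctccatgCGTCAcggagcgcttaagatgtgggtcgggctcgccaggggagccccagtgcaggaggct
Sik2, chr9:51009054-51009323, minus strand: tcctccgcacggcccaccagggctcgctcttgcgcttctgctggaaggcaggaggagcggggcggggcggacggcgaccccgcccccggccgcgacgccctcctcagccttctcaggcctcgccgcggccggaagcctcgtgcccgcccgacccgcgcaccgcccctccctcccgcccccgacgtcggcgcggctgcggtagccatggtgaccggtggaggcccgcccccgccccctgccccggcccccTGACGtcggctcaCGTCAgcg
Fos, chr12:85473640-85473909, plus strand: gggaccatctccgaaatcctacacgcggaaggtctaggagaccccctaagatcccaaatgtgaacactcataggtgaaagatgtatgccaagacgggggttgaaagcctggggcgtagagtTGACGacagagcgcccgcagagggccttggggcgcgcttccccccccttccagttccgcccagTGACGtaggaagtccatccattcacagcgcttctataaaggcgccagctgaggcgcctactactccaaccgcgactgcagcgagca
Pcsk1, chr13:75089607-75089876, plus strand: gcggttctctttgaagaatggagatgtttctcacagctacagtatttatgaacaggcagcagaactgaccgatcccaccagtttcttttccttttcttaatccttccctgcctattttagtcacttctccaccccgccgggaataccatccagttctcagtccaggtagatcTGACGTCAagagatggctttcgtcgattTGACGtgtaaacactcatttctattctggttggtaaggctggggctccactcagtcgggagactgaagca
The Nr4a1 window held 4 copies of the core and the windows of Sik2 and Fos held 2 each. The Pcsk1 window held 3, of which 2 overlap within the full palindrome TGACGTCA. Searched on both strands over 250 bases before and 50 after the start, the core was present in 20.8% of 32851 promoters of the reference and the full element in 1.79%. Of the 470 genes called higher, 350 had a promoter in that table, and 45.1% of these held it, against 29.1% of 13249 tested genes with a promoter. A match says only that the letters are in the window.

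Of the 40 listed rapid immediate-early genes 38 were tested, of which 9 rose (23.7%, against 2.22% of all genes) and none fell. The fold change was positive for 34 of the 38, beside 10389 of all 21213 genes. The median log2 fold change of the 38 was 1.61, or 1.55 with the 3 members that had no count in any dark library placed at their lower bound, while the median of all genes was -0.01. Their summed level was 1106, 895.4, 700.2, 980.2 and 1287 CPM in light replicates 1 to 5, and 474.5, 217.4 and 316.9 CPM in dark replicates 1 to 3. Every light library lay above every dark library, and dark replicate 3, whose index matched the light libraries, lay between the other dark ones. The median was 1.66 without dark replicates 1 and 2 and 1.01 with the index as a covariate. The listed genes are short, with a median span of 5.07 kb. Of protein-coding genes under 10 kb 5.67% rose, with a median of 0.79.

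Nr4a1 (chr15:101254269-101274795, mm10) had 150.3, 104.2, 86.2, 108.8 and 157.0 CPM in light replicates 1 to 5, and 61.2, 30.3 and 19.99 CPM in dark replicates 1 to 3. All light libraries lay above all dark libraries, and dark replicate 3 was the lowest of the 8. The log2 fold change was 1.70 ± 0.34 (SE, edgeR adjusted p = 0.00649), 2.6 without dark replicates 1 and 2, and 2.14 with the index.

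Fos (chr12:85473890-85477273) had 52.2, 17.1, 61.5, 54.0 and 51.8 CPM in light replicates 1 to 5, and 11.0, 1.58 and 5.74 CPM in dark replicates 1 to 3. Light replicate 2 was far below the other light libraries yet above each dark library. The log2 fold change was 2.93 ± 0.80 (edgeR adjusted p = 0.0328), 3.04 without dark replicates 1 and 2, and 2.27 with the index.

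The transcription factor Egr1 had 189.3, 162.5, 93.2, 147.1 and 188.9 CPM in light replicates 1 to 5, and 40.8, 10.2 and 55.7 CPM in dark replicates 1 to 3, again without overlap. Its log2 fold change was 2.13 ± 0.49 (edgeR adjusted p = 0.0144), 1.49 without dark replicates 1 and 2, and 1.3 with the index. Arc, which encodes a synaptic protein that drives removal of AMPA receptors, had 112.4, 147.8, 87.0, 149.1 and 173.2 CPM in light libraries and 44.9, 16.1 and 15.9 CPM in dark libraries. Its log2 fold change was 2.38 ± 0.63 (edgeR adjusted p = 0.032), 3.07 without dark replicates 1 and 2, and 1.5 with the index. Over the 470 genes called higher the median was 1.51, and 0.82 without those libraries. Junb and Jun, the AP-1 partners of FOS, rose by 2.02 ± 0.53 and 2.55 ± 0.73 on the log2 scale (edgeR adjusted p = 0.026 and 0.0387), with all light libraries above all dark ones for both. Without dark replicates 1 and 2 they had 1.47 and 1.87. Junb overlaps Prdx2, which also passed, and in reads without strand the pair cannot be told apart where they overlap.

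Gadd45b, a stress-responsive gene tied to DNA demethylation in neurons, had 16.3, 15.8, 3.79, 14.7 and 31.6 CPM in light replicates 1 to 5, and 0.562, 0.904 and 0 CPM in dark replicates 1 to 3. It was nearly silent in the dark and its log2 fold change was 5.03 ± 0.98 (edgeR adjusted p = 0.00566). The zinc-finger gene Klf10 rose by 2.63 ± 0.58 on the log2 scale (edgeR adjusted p = 0.00975). Fosb, another AP-1 subunit, had 2.53, 0, 1.35, 6.08 and 10.4 CPM in light libraries and no count in any dark library, so it was at least 23-fold higher on average, taking 3 counts over the dark group as the floor (edgeR adjusted p = 0.016). Light replicate 2 also had none, so the groups touch at 0 for Fosb. The floor covers counting error only, since PCR reads without molecular identifiers are not independent molecules.

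Npas4, a transcription factor induced almost only by neuronal activity, did not pass. It had 12.2, 4.54, 8.40, 4.82 and 27.9 CPM in light libraries and 8.72, 3.39 and 4.81 CPM in dark libraries, so the groups overlapped (log2 fold change 1.03 ± 0.88, edgeR adjusted p = 0.554). The orphan receptor gene Nr4a3 had 44.1, 13.6, 22.8, 21.6 and 43.8 CPM in light libraries and 65.5, 19.4 and 3.89 CPM in dark libraries. Dark replicate 1 was the highest of all 8 for Nr4a3 and dark replicate 3 the lowest, and its fitted log2 fold change was -0.02.

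**Figure D2:**
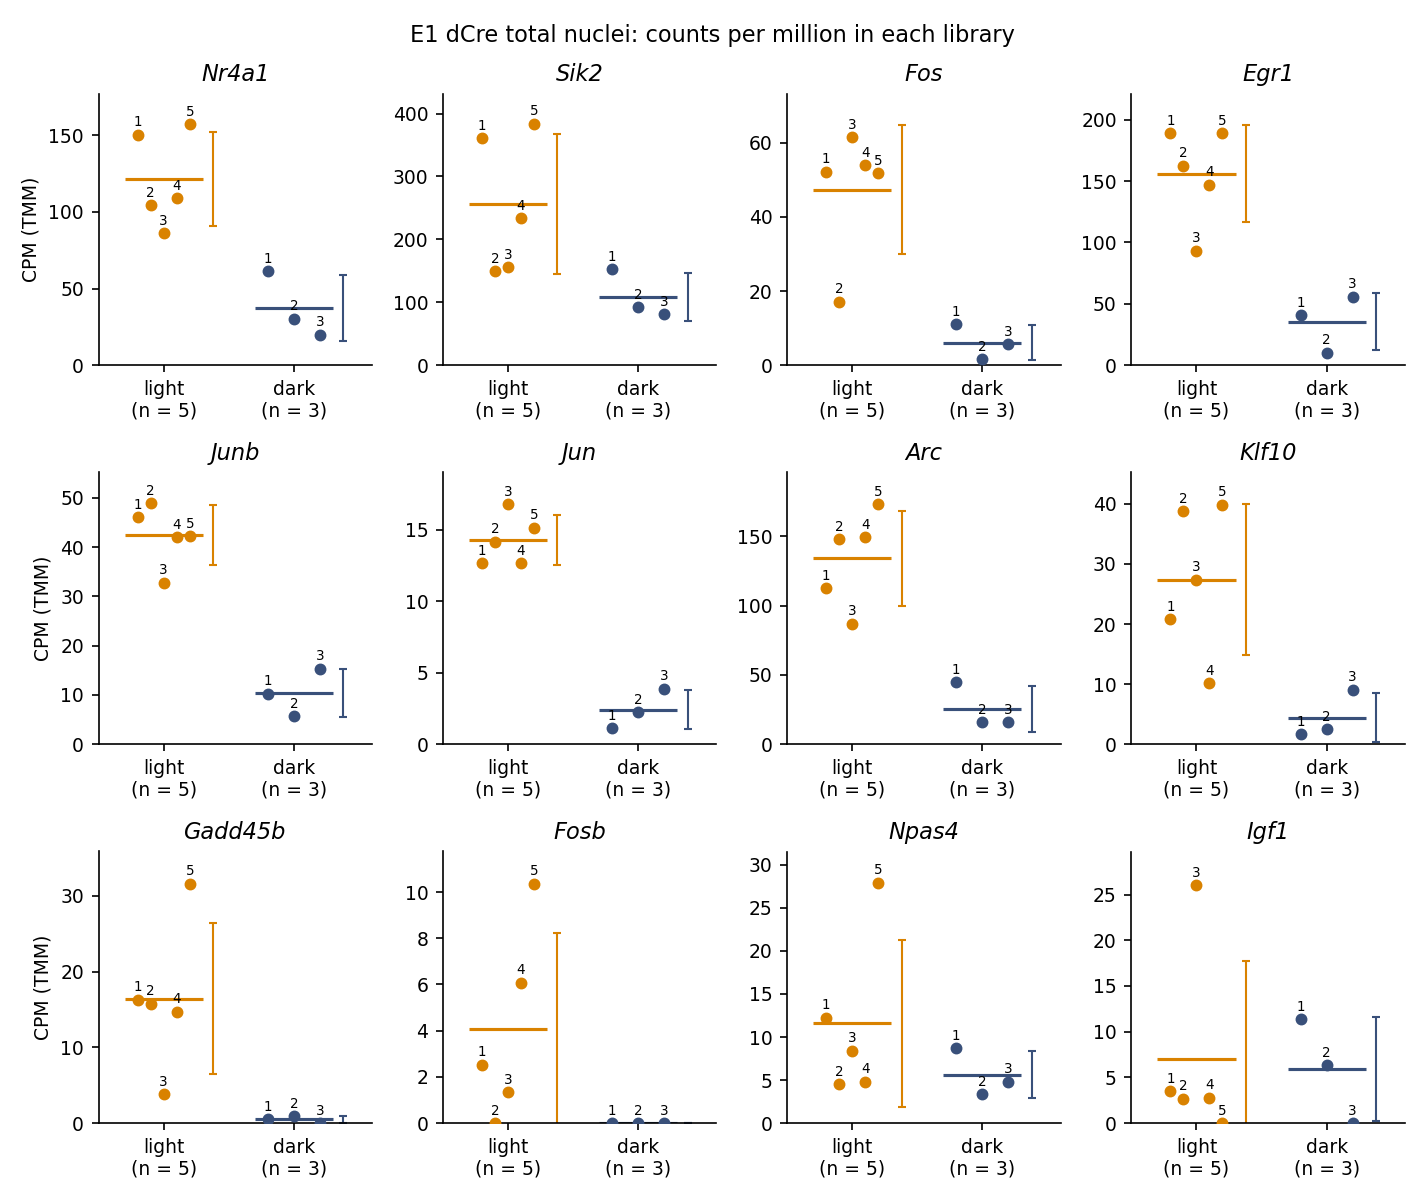
Level in CPM of 12 genes in each of the 8 E1 dCre libraries of total nuclei, light on the left and dark on the right of each panel, with points numbered by replicate, a line at the mean and a bar of 1 SD. Nr4a1, Fos, Egr1, Junb, Jun, Arc, Klf10 and Gadd45b have every light library above every dark one, while Npas4 and Igf1 overlap.

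Activity-regulated effector genes, which act at synapses, in signalling and in secretion, formed the next list. Of 40 tested, 9 rose and none fell, 22.5% against 2.22% of all genes, and 35 had a positive fold change, with a median log2 fold change of 1.25. Pcsk1 had 101.0, 43.8, 76.2, 142.5 and 208.0 CPM in light replicates 1 to 5, and 53.6, 28.7 and 46.1 CPM in dark replicates 1 to 3. Light replicate 2 fell below dark replicates 1 and 3, and the log2 fold change was 1.41 ± 0.37 (edgeR adjusted p = 0.0273), 1.31 without dark replicates 1 and 2. Rasl11a, a RAS-like gene, had 5.48, 9.36, 6.51, 5.33 and 16.2 CPM in light libraries and none in dark libraries, at least 48.4-fold higher (edgeR adjusted p = 0.00994). Sertad1, a transcriptional coregulator, rose by 3.72 ± 0.91 on the log2 scale (edgeR adjusted p = 0.0187) with no overlap.

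The calls of 3 other effectors leaned on dark replicates 1 and 2. Nrn1, a membrane-anchored factor that promotes neurite growth, had 71.0 to 145.3 CPM in light libraries and 20.5, 25.5 and 75.5 CPM in dark replicates 1 to 3, so dark replicate 3 was inside the light range. Its log2 fold change of 1.32 ± 0.33 (edgeR adjusted p = 0.0219) was 0.42 without dark replicates 1 and 2. Syt4, a vesicle protein, behaved alike, with 1.22 ± 0.34 (edgeR adjusted p = 0.0338) and 0.42, and the potassium channel gene Kcnk1 went with them at 1.00 ± 0.27 (edgeR adjusted p = 0.0283) and 0.54.

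Sik2 (chr9:50892801-51009073) had 360.5, 149.1, 155.6, 233.3 and 384.2 CPM in light replicates 1 to 5, and 152.2, 92.2 and 80.7 CPM in dark replicates 1 to 3. Light replicate 2 was just under dark replicate 1 and the rest did not overlap (log2 fold change 1.24 ± 0.33, edgeR adjusted p = 0.0275). Sik2 spans 116 kb, and unlike most long genes it was higher after light: 1.67 without dark replicates 1 and 2 and 2.02 with the index. Among 15 tested genes that feed back on MAP kinases, Dusp14 and Dusp1 rose (13.3%, against 2.22% of all genes) and none fell. DUSP1, which removes phosphate from MAP kinases, is itself an early-response gene, and its gene had 46.1 to 108.7 CPM in light libraries and 16.0, 14.9 and 22.2 CPM in dark libraries (log2 fold change 1.99 ± 0.52, edgeR adjusted p = 0.026). Dusp14 rose by 1.35 ± 0.31 on the log2 scale (edgeR adjusted p = 0.0127), again without overlap.

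The genes called higher with the lowest p were mostly of other kinds. The lowest p was that of Rnf187, an E3 ubiquitin ligase gene spanning 6.63 kb, with 116.7, 103.7, 98.1, 109.5 and 106.8 CPM in light replicates 1 to 5, and 21.4, 26.4 and 26.3 CPM in dark replicates 1 to 3. Both groups were tight and far apart, and dark replicate 3 sat with the other dark libraries (log2 fold change 2.12 ± 0.33, edgeR adjusted p = 0.00126). Sar1b, a GTPase of the vesicle coat that leaves the endoplasmic reticulum, had 57.7 to 108.9 CPM in light libraries and 9.14, 21.5 and 26.5 CPM in dark libraries, also apart (2.08 ± 0.36, edgeR adjusted p = 0.00287). Cpe, which encodes carboxypeptidase E of the neuropeptide pathway, had 612.8 to 1098 CPM in light libraries and 369.0, 322.3 and 353.5 CPM in dark libraries, and its log2 fold change was 1.24 ± 0.23 with all dark libraries (edgeR adjusted p = 0.00566), 1.22 without replicates 1 and 2, and 0.66 with the index.

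For others of the 12 with the lowest p, dark replicate 3 lay between the other dark libraries and the light ones. Prelid1, a mitochondrial lipid-transfer gene, had 78.8 to 121.4 CPM in light libraries and 20.2, 8.81 and 40.9 CPM in dark replicates 1 to 3. Prelid1 overlaps Rab24, which also passed, and in reads without strand the pair cannot be told apart where they overlap. Ap1s1, a clathrin adaptor subunit gene, had 30.5 to 46.2 CPM in light and 9.28, 5.65 and 20.4 CPM in dark libraries. Atp5o, a subunit of mitochondrial ATP synthase, had 40.2 to 69.5 CPM in light libraries and 5.62, 5.20 and 27.2 CPM in dark libraries. A second entry of this symbol overlaps it on the same strand and had a log2 fold change of 0.06 (edgeR adjusted p = 0.8825). Atp5o means the first entry throughout. Vmp1, an autophagy gene, and Rpl12, a ribosomal protein gene, were also in this set. B2m, the light chain of MHC class I, and Patl2 overlap on opposite strands and gave almost the same values, up to 230.3 and 232.2 CPM in light libraries, so their reads cannot be told apart.

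The ribosomal protein and chaperone lists moved upward with the same libraries. Of 41 tested genes of the cytosolic ribosome 15 rose (36.6%, against 2.22% of all genes) and none fell. All 41 log2 fold changes were positive, beside 10389 of all 21213 genes, with a median of 1.34. These genes are short (median span 3.78 kb), and of protein-coding genes under 10 kb 5.67% rose, with a median of 0.79. The list's summed level was 1025, 1303, 985.6, 1283 and 1541 CPM in light replicates 1 to 5, and 269.2, 298.5 and 918.6 CPM in dark replicates 1 to 3. Dark replicate 3 lay just under the lowest light library and far above the other dark ones. Oligodendrocyte lineage markers were also lower in dark replicates 1 and 2 (452.5 and 491.5 CPM) than in dark replicate 3 (2036 CPM), and their part in the ribosomal and chaperone results was not tested. The median was 0.54 without dark replicates 1 and 2 and 0.36 with the index. Rpl30, for example, had 30.9 to 54.0 CPM in light libraries and 6.05, 2.71 and 14.2 CPM in dark libraries (log2 fold change 2.35 ± 0.47, edgeR adjusted p = 0.00725).

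Of 14 heat-shock chaperone genes 6 rose and none fell, 42.9% against 2.22% of all genes, with a median log2 fold change of 1.11. Hspa8, which encodes the constitutive HSC70, had 297.8, 693.1, 367.8, 339.0 and 547.8 CPM in light replicates 1 to 5, and 20.5, 28.2 and 217.3 CPM in dark replicates 1 to 3. Dark replicate 3 was far above the other dark libraries for Hspa8 and still below all light ones (2.34 ± 0.60, edgeR adjusted p = 0.0272). Hspa5, the chaperone of the endoplasmic reticulum, had 269.5 to 519.3 CPM in light libraries and 14.3, 43.2 and 150.8 CPM in dark libraries. The others were Dnajb1, Dnaja1, Hsp90aa1 and Hsp90ab1, and the list's median was 0.31 with the index.

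**Figure D3:**
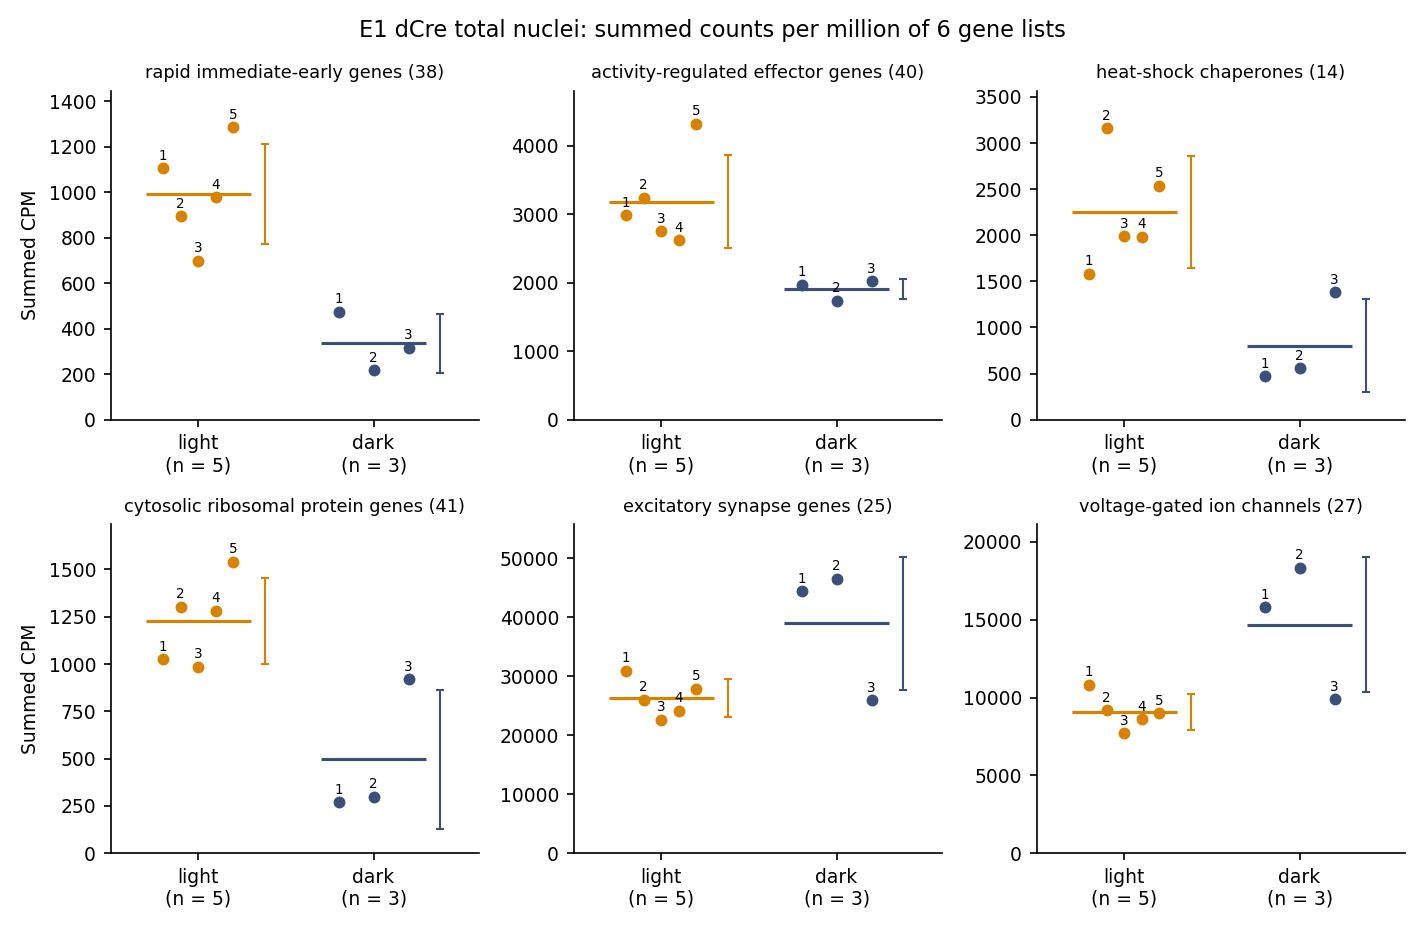
Summed level in CPM of 6 gene lists in each E1 dCre library of total nuclei, light before dark, with points numbered by replicate. Rapid immediate-early genes had 700.2 to 1287 CPM in light and 217.4 to 474.5 CPM in dark libraries, while for ribosomal protein genes dark replicate 3 (918.6 CPM) lay near the light libraries (985.6 to 1541 CPM) and away from dark replicates 1 and 2 (269.2 and 298.5 CPM).

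Genes called lower were mostly long ones. The lowest p was that of Gse1, a coregulator gene spanning 353 kb, with 54.7, 45.2, 49.6, 34.7 and 47.8 CPM in light replicates 1 to 5, and 183.5, 192.5 and 63.1 CPM in dark replicates 1 to 3. Dark replicate 3 was close to the light libraries, and the log2 fold change was -1.66 ± 0.29 (edgeR adjusted p = 0.00287) with all libraries and -0.44 without dark replicates 1 and 2. Caln1, which encodes a neuronal calcium-binding protein, had 140.5 to 193.8 CPM in light libraries and 523.7, 505.1 and 284.1 CPM in dark libraries (-1.36 ± 0.24, edgeR adjusted p = 0.00287). Hs3st4, a heparan sulfate sulfotransferase gene, had 398.8 to 650.9 CPM in light libraries and 1356, 1532 and 626.9 CPM in dark libraries, and dark replicate 3 fell inside the light range. The remaining genes among the 12 lowest p were Fam78b, Mtus2, Sipa1l3, Susd4, Adap1, Setbp1, Jakmip3, Nup210 and Shank3.

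Of 25 tested genes of the excitatory synapse 6 fell (24%, against 1.47% of all genes) and none rose, with a median log2 fold change of -0.58. These genes are long (median span 378 kb), and of protein-coding genes over 100 kb 8.14% fell, with a median of -0.50. Shank3, a scaffold of the postsynaptic density, had 22.8 to 34.4 CPM in light libraries and 87.2, 115.7 and 50.5 CPM in dark replicates 1 to 3 (-1.53 ± 0.31, edgeR adjusted p = 0.00745), and all dark libraries lay above all light ones. Dlg4, which encodes the scaffold PSD-95, had 30.4, 12.0, 17.1, 26.9 and 30.6 CPM in light libraries and 71.0, 82.7 and 22.6 CPM in dark libraries. For Dlg4 dark replicate 3 sat in the middle of the light libraries, and the log2 fold change of -1.33 ± 0.39 (edgeR adjusted p = 0.041) was 0.05 without dark replicates 1 and 2. Shank1, the AMPA receptor subunit genes Gria1 and Gria4 and the adhesion gene Nrxn3 also fell, by 0.72 to 1.44 on the log2 scale. Without dark replicates 1 and 2 Shank1 had -0.29, Gria1 -0.23, Gria4 -0.44 and Nrxn3 0.20. The list's median was 0.13 with the index as a covariate.

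Among 27 voltage-gated channel genes 6 fell (22.2%, against 1.47% of all genes) and 1 rose. Their median span was 176 kb, and of protein-coding genes over 100 kb 8.14% fell. The list's median log2 fold change was -0.57, and -0.01 with the index as a covariate. Cacna1a, the pore of P/Q-type calcium channels, had 107.2 to 212.2 CPM in light libraries and 573.2, 662.8 and 136.6 CPM in dark replicates 1 to 3, so dark replicate 3 was inside the light range (-1.6 ± 0.34, edgeR adjusted p = 0.00896) and the fold change was 0.15 without the other pair. Cacna1c and Cacna1e, which form other calcium channels, and the potassium channel genes Kcnq3 and Kcnd2 fell by 0.73 to 0.96 on the log2 scale. Without dark replicates 1 and 2 Cacna1c had -0.11, Cacna1e -0.04, Kcnq3 -0.41 and Kcnd2 -0.49.

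Fold change followed gene span across the whole table. Genes called higher had a median span of 11.8 kb and genes called lower one of 173 kb, against 18.4 kb for all genes tested. Of 3442 protein-coding genes under 10 kb, 195 rose and 1 fell, and of 2408 over 100 kb, 7 rose and 196 fell. The median log2 fold change was 0.79 under 10 kb, 0.04 between 10 and 100 kb, and -0.50 over 100 kb. Without dark replicates 1 and 2 these medians were 0.26, 0.08 and -0.01. Of the 470 genes called higher, 376 had all light libraries above all dark ones, and of the 311 called lower, 185 had all below. Over all 21213 genes tested 1124 had all light libraries above and 1096 all below, so that 10.5% did not overlap. Dark replicate 3 lay within the range of the light libraries for 18.9% of the genes called higher and 39.2% of those called lower, against 67.8% of all genes tested. The part of the length index in single calls was not tested beyond these values.

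**Figure D4:**
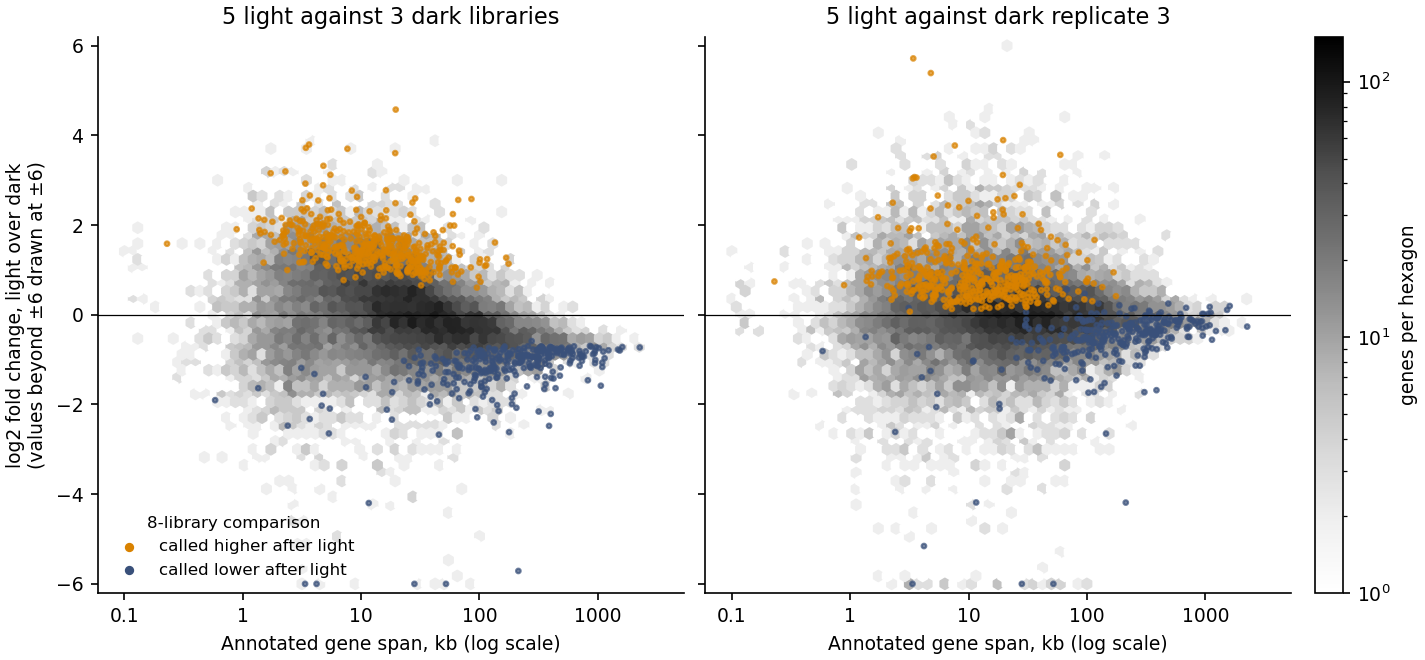
Log2 fold change, light minus dark, against gene span in kb on a log axis, with all 3 dark libraries on the left and dark replicate 3 alone on the right, for genes detected in dark replicate 3. Grey hexagons count genes, and points are the genes called higher or lower in the comparison of all 8 libraries. On the left the protein-coding medians are 0.79 under 10 kb and -0.50 over 100 kb, and on the right 0.26 and -0.01.

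Few genes passed in the other lists. Igf1, the growth factor whose enhancers the series is about, had 3.52, 2.67, 26.02, 2.79 and 0 CPM in light libraries and 11.4, 6.33 and 0 CPM in dark libraries. Light replicate 3 alone was high, the groups overlapped, and no difference was detectable at this depth (log2 fold change 0.23 ± 1.20, edgeR adjusted p = 0.953). Vip marks the interneurons in which Flp switches the virus on. It ranged from 1.52 to 205.5 CPM in light libraries and from 2.94 to 9.28 CPM in dark libraries (edgeR adjusted p = 0.271), with the highest value in light replicate 2. Of 23 genes of IGF1 signalling, Igfbp4, a binding protein of IGF1, rose by 1.75 ± 0.45 on the log2 scale (edgeR adjusted p = 0.023).

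Of 21 circadian clock genes 1 rose (4.76%, against 2.22% of all genes) and 2 fell (9.52%, against 1.47%), and with so few calls these shares are not read as a result about the list. Bhlhe40, a repressor in the clock that also responds to stimulation, had 41.1 to 66.4 CPM in light libraries and 12.5, 9.27 and 21.3 CPM in dark libraries (1.87 ± 0.47, edgeR adjusted p = 0.0203), and the long gene Rora and the gene Hlf fell by 1.03 and 1.05. Of 23 excitatory neuron markers 3 fell (13%, against 1.47% of all genes), namely Cux1, Bcl11b and Tshz2. The list's median log2 fold change was -0.35, and 0.02 without dark replicates 1 and 2. Without those libraries Cux1 had -0.41 and Bcl11b -0.16, and for Bcl11b dark replicate 3 was inside the light range. Gfap, the intermediate filament of astrocytes, had 22.2, 19.2, 12.5, 5.07 and 60.3 CPM in light replicates 1 to 5, and 1.69, 0 and 0 CPM in dark replicates 1 to 3, without overlap (5.20 ± 1.16, edgeR adjusted p = 0.00976), while the summed level of the 14 astrocyte markers overlapped at 545.2 to 1160 CPM in light and 723.3 to 985.0 CPM in dark libraries. The microglial receptor gene Cx3cr1 rose by 1.27 ± 0.37 (edgeR adjusted p = 0.0384), but its annotated span contains parts of other genes, among them Wdr48, which passed as well. Bax, a p53 target that promotes cell death, rose by 1.28 ± 0.37 (edgeR adjusted p = 0.0384), and the long noncoding RNA Meg3 fell by 0.78 (edgeR adjusted p = 0.0192). In edgeR no gene passed among the 9 lists of GABAergic, VIP, parvalbumin and somatostatin interneuron, oligodendrocyte, endothelial, interferon, inhibitory synapse and mitochondrially encoded genes. Of their 105 genes, 28 had an unadjusted p under 0.05, beside 4329 of all 21213. DESeq2 called 10 of the 105, beside 1860 of all 21213, and these counts are not read as a result about the lists. The summed level of mitochondrially encoded genes was 1140 to 5610 CPM in light and 885.5 to 1398 CPM in dark libraries, with the highest value in light replicate 5.

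Set beside the other comparisons of total nuclei, which use other libraries, E1 dCre had the most calls with all dark libraries fitted. Without its dark replicate 1 E1 dCre had 6 calls, and without its dark replicate 2 it had 4. E1 Cre gave 27 (0.127%), E23 dCre 38 (0.179%) and E123 dCre 79 (0.372%). Of those calls, 6 of 27 (22.2%), 8 of 38 (21.1%) and 29 of 79 (36.7%) were also called in the same direction in E1 dCre, which is 0.768%, 1.02% and 3.71% of its 781. The genes called higher in E1 dCre had a positive fold change in 47.2% of cases in E1 Cre, 70.2% in E23 dCre and 90.9% in E123 dCre, the line with 2 dark libraries of high length index. For the genes called lower, the same direction was seen in 55.6%, 52.4% and 86.2%. Over all genes tested the direction was shared in 50.5%, 51.0% and 61.3%.

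The medians of gene groups are set side by side, and their differences were not tested. The median log2 fold change of the 41 ribosomal genes was 1.34 in E1 dCre, -0.03 in E1 Cre, 0.00 in E23 dCre and 0.52 in E123 dCre. That of the 38 rapid immediate-early genes was 1.61 in E1 dCre, 1.56 in E1 Cre, 1.5 in E23 dCre and 2.43 in E123 dCre. The median of genes under 10 kb was 0.79 in E1 dCre, -0.03 in E1 Cre, 0.00 in E23 dCre and 0.32 in E123 dCre. Fos rose by 2.93 in E1 dCre, and had log2 fold changes of 2.69 ± 0.65 in E1 Cre, 3.53 ± 0.75 in E23 dCre and 3.88 ± 0.79 in E123 dCre, of which E1 Cre did not pass (edgeR adjusted p = 0.0972).

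A set of 24 genes was called in at least 2 of the 3 other comparisons, a rule made after the data were seen. In E1 dCre 21 of them had a positive fold change, beside 10389 of all 21213 genes, and 8 passed (33.3%, against 3.68% of all genes): Nr4a1, Fos, Sik2, Pcsk1, Dusp14, Tiparp, Fmnl1 and 1700016P03Rik. Their median log2 fold change was 1.07 in E1 dCre. The other comparisons chose these genes, which raises their medians there, so the size of the response is not compared. The 3 with a negative value were Nr4a3 and the long genes Maml3 and Nmnat2. Without dark replicates 1 and 2, which leaves 1 dark library, the median in E1 dCre was 1.42 and all 24 were positive.

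**Figure D5:**
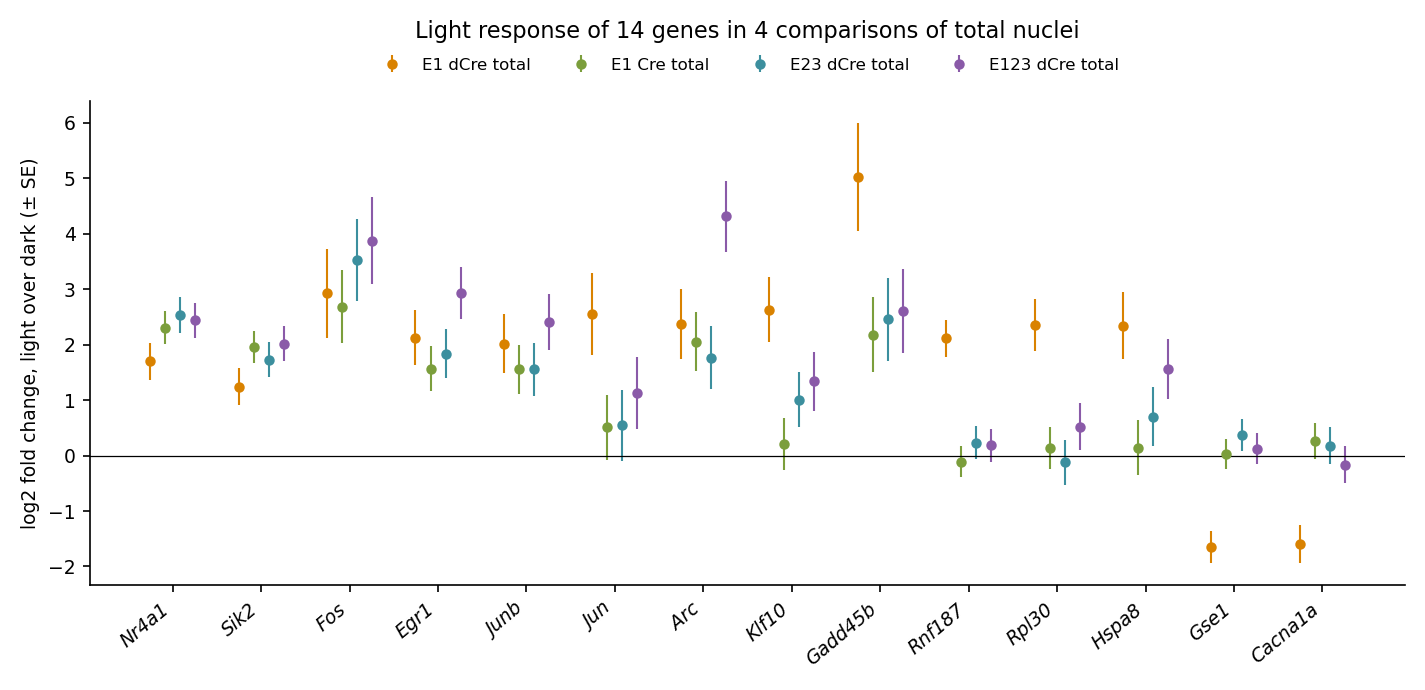
Log2 fold change, light minus dark, with its SE for 14 genes in total nuclei of E1 dCre, E1 Cre, E23 dCre and E123 dCre mice. Nr4a1, Fos and Sik2 were above 0 in all 4 comparisons, while Rnf187 stood at 2.12 in E1 dCre and between -0.11 and 0.23 in the other comparisons.

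The difference between light responses was tested directly. Against E1 Cre, 6 genes (0.0283%) differed. Rnf187 rose in E1 dCre by 2.12 and had -0.11 ± 0.28 in E1 Cre, a difference of 2.23 ± 0.43 (edgeR adjusted p = 0.0262), and Sar1b differed by 2.49 ± 0.46 (edgeR adjusted p = 0.0262). Prps1, which encodes an enzyme of nucleotide synthesis, had 21.96 to 41.7 CPM in light libraries and 3.38, 11.1 and 3.89 CPM in dark libraries of E1 dCre, and its response differed by 3.04 ± 0.59 (edgeR adjusted p = 0.0262), while E123 dCre also had a higher value after light (2.18 ± 0.43, edgeR adjusted p = 0.00755). Atp5o and the predicted gene Gm42957 differed by 2.48 and 3.10. Nr4a1 and Fos did not pass, with differences of -0.61 ± 0.42 and 0.24 ± 0.95 (edgeR adjusted p = 0.522 and 0.954).

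Against the mean of E23 dCre and E123 dCre, 2 genes (0.00943%) differed, both with a lower response in E1 dCre: Gse1 by -1.91 ± 0.35 and Sipa1l3, a GTPase-activating protein gene, by -2.27 ± 0.43 (edgeR adjusted p = 0.0274 for both). None of the 6 or the 2 passed with the length index as a covariate. For both Gse1 and Sipa1l3 dark replicate 3 was nearer to the light libraries than to the other dark ones.

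VIP nuclei of E1 dCre mice gave 860 calls of 20585 genes (4.18%), and the labels give them replicate numbers and sexes like those of the total nuclei, so the animals may be shared. The median log2 fold change in VIP nuclei was 1.83 for the rapid immediate-early genes and 1.45 for the ribosomal genes, near the values of 1.61 and 1.34 in total nuclei. The response of 4 genes of 22926 (0.0174%) differed between the fractions, all lower in total nuclei than in VIP nuclei. The fit takes the fractions as independent. With a block for each replicate number 8 genes passed, among them Lin7a and Zdhhc23, and Bricd5 and Spint2 did not (edgeR adjusted p = 0.155 and 0.0654). Lin7a, a scaffold gene of synapses, had 85.7 to 176.7 CPM in light and 141.5 to 171.7 CPM in dark libraries of total nuclei, and rose by 2.89 ± 0.47 in VIP nuclei, a difference of -3.04 ± 0.49 (edgeR adjusted p = 0.000504). Zdhhc23, a palmitoyltransferase gene, differed by -6.08, Bricd5 by -7.48 and the protease inhibitor gene Spint2 by -5.37 (edgeR adjusted p = 0.00891, 0.0319 and 0.039), and none of these 3 separated the light from the dark libraries of total nuclei.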

How the data were processed

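The deposited table holds raw read counts per gene and library, made by the authors from nuclei sorted by flow cytometry, with oligo-dT priming, template switching and 17 cycles of PCR per the labels' protocols. The submitters' processing notes name cutadapt 1.18, STAR 2.5.3a, HOMER 4.9.1 and mm10, and the annotation and strand setting are not given in the sources used here. The chemistry does not mark strand, so overlapping genes cannot be told apart. Of 55335 identifiers, 55154 matched GENCODE M21 for symbols and spans, and 181 with 0.0225% of counts did not.

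Light was compared with dark by edgeR 4.0.16 (R 4.3.3), with the quasi-likelihood F test, TMM scaling, the default filter on low counts and 1 coefficient per group, over all 48 libraries of total nuclei. The VIP comparison used 48 libraries of VIP nuclei, and the difference between fractions all 96. P-values were adjusted over all genes tested (Benjamini-Hochberg, threshold 0.05). Each SE was approximated as the size of the log2 fold change over the root of its F value. CPM are on TMM library sizes. The members and the 23 gene lists were chosen with earlier results of these data known. Named genes are Fos, Npas4, Igf1 and Vip, up to 12 called genes per direction by smallest p without predicted or sex-linked genes, those also called with the length index, up to 6 called members per list with all of the rapid immediate-early list, and up to 5 per direction in differences between comparisons. Ntrk2, Ppm1h, Lamp1, Grtp1, Tiparp, Fmnl1, 1700016P03Rik, Maml3 and Nmnat2 were named after their values were seen. Some genes that the rule names are not reported here. In a test on simulated counts for E1 dCre total nuclei, 29 of 100 genes changed 4-fold and 7 of 100 changed 2-fold were recovered among 21213. Same-numbered light and dark libraries did not deviate together, so numbers were not used as pairs. No duplicate libraries were found.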

Additional observations from a re-analysis of the deposited data

Results flagged for a closer look

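In the 5 light libraries, 6 of 79 levels tested had 1 library far from the rest by Dixon's test, and chance gives about 1 in 20. Fos was at 17.1 CPM in light replicate 2 and at 51.8 to 61.5 CPM in the others. Light replicate 2 also had Vip at 205.5 CPM, against 1.52 to 59.6 CPM in the other light libraries, and Cux1, a marker of upper-layer excitatory neurons, at 105.8 CPM, against 135.8 to 145.5 CPM. Igf1 was at 26.02 CPM in light replicate 3 and at 0 to 3.52 CPM in the others. Light replicate 5 had Dnajb1 at 82.4 CPM, against 16.5 to 33.9 CPM, and Rpl8 at 52.6 CPM, against 20.3 to 29.4 CPM.

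The light response of 6 genes differed between E1 dCre and E1 Cre total nuclei in edgeR, as log2 fold changes E1 dCre minus E1 Cre: Sar1b by 2.49, Rnf187 by 2.23, Prps1 by 3.04 (adjusted p = 0.0262 for each), Atp5o by 2.48 (adjusted p = 0.0444) and Gm42957 by 3.10 (adjusted p = 0.0445) among them. Gm42957 overlaps Itga10 on the same strand, so its reads may be shared. Between E1 dCre and the mean of E23 dCre and E123 dCre, Gse1 differed by -1.91 and Sipa1l3 by -2.27 (adjusted p = 0.0274 for both). Between total and VIP nuclei of E1 dCre mice, Lin7a differed by -3.04 (adjusted p = 0.000504), Zdhhc23 by -6.08 (adjusted p = 0.00891), Bricd5 by -7.48 (adjusted p = 0.0319) and Spint2 by -5.37 (adjusted p = 0.039). The last 3 had at most 35.9 CPM in any E1 dCre library of total nuclei.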

How the results depend on the processing

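The count of 781 calls in the light comparison was 811 with RLE scaling and 722 with sex as a covariate, and several other settings moved it by over 1.5 times. It was 3 in a fit of the 8 libraries alone (Lamp1, Grtp1 and Rnf187), 1248 with no filter on low counts, 1860 with DESeq2 1.42.0, 189 with a replicate block and 4 with the length index as a covariate. With dark replicates 1 and 2 left out together 1 dark library remained, and that count is not read. Leaving out 1 library at a time gave 4 to 2904 calls, with 876, 342, 527, 533 and 242 without light replicates 1 to 5. In settings chosen after seeing the data, E1 dCre females alone (2 light and 2 dark) gave 1177 calls. Males have 1 dark library, so their count of calls is not read and the sexes are not compared. Rnf187 passed in 16 of 19 settings and Nr4a1 in 15. With 5 light and 3 dark libraries, most 2-fold changes cannot be called at this depth and spread.

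The 6 genes differing from E1 Cre became 1 with only the groups compared, 604 with no filter and 539 with DESeq2. They became 0 with the replicate block, with sex and with the length index, and 611 in females, with 0 to 1738 when 1 library was left out. The 2 genes differing from E23 and E123 dCre became 1 with only the groups compared, 0 with total counts only, 270 with no filter and 121 with DESeq2. They became 0 with the replicate block and with the length index, 7 with sex and 319 in females, with 0 to 1341 when 1 library was left out. The 4 genes differing from VIP nuclei became 54 with DESeq2, 8 with the replicate block (2 of the 4 among them), 9 with the length index and 1 in females, with 2 to 4 when 1 library was left out. Same-numbered light and dark libraries correlated at 0.0984, -0.0566 and 0.00674 in their deviations from the group means, and not every library correlated best with its own number, so the block is not read as pairing. Total and VIP libraries of the same light condition and number correlated at 0.00806 to 0.385, with 4 of 8 pairs over 0.1. Those of different numbers correlated at -0.27 to 0.169. Shared animals are possible and were not settled, so the counts with and without the block are both given. Where an edgeR count was 0 and more than 1 dark library of E1 dCre was left, 1097 of 21213 to 3105 of 21212 genes had an unadjusted p under 0.05.

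The fold change turned positive for Nrxn3 (0.145) with the length index, for Dlg4 (0.0547), Nrxn3 (0.197) and Cacna1a (0.149) without dark replicates 1 and 2, and for Dlg4 (0.0303), Nrxn3 (0.181) and Cacna1a (0.0258) in males, and the cause was not tested. The length index difference of -1.09 was -0.194 without dark replicates 1 and 2, a setting added after seeing the data. It was -0.848 with bounds of 50 and 20 kb, -1.17 with a pseudocount of 0.5 CPM, and -1.54 to -0.849 when 1 library was left out.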
